A study of Mus musculus with 12 samples.

Results

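Oxidative phosphorylation genes were followed in the livers of 12 wild-type C57BL/6J mice that ate AIN-93G chow with a concentrate oil of very-long-chain polyunsaturated fatty acids (VLCPUFA). The diets held 5% (w/w) of the oil (N987 and N988 female, N975 and N976 male), 1% of it (N983 and N984 female, N971 and N972 male) or, as control, none (N979 and N980 female, N967 and N968 male). Feeding began at 9 months of age and lasted 8 weeks in every group, and all animals were fasted for 5 hours before the liver was taken. The series text speaks of 6 samples per group, while the 12 libraries analysed here are 4 per diet. Members were the protein-coding genes of the deposited CPM table (CPM is a gene's reads scaled to a common library total) whose symbols begin with Nduf, Sdha, Sdhb, Sdhc, Sdhd, Uqcr, Cox4i, Cox5, Cox6, Cox7, Cox8, Atp5, mt-Nd, mt-Co, mt-Cytb or mt-Atp. The rule found 105 of the 11339 genes in that table, and 2 (Ndufb1-ps and Ndufb4c) were left out as pseudogene or noncoding entries. The remaining 103 members are 13 mitochondrially encoded and 90 nuclear genes, and the rule used no measured difference. All 103 passed the filter on low counts.

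Oxidative phosphorylation passes electrons from NADH through complex I and from succinate through complex II to ubiquinone, and on through complex III and cytochrome c to complex IV, where oxygen is reduced. Complexes I, III and IV pump protons across the inner mitochondrial membrane, and complex V, the ATP synthase, uses the gradient to make ATP. Complex II is built from nuclear genes alone, whereas the other complexes join nuclear subunits to subunits encoded by mitochondrial DNA. The mitochondrial messages are cut from long transcripts of both strands of that DNA, and nuclear subunits are made in the cytosol and imported. Hepatocytes are rich in mitochondria, which supply the ATP for gluconeogenesis and urea synthesis and re-oxidise the carriers reduced by fatty acid oxidation. The nuclear members comprise 36 genes of complex I, 4 of complex II, 8 of complex III, 12 of complex IV (Ndufa4 among them), 16 of complex V, 13 assembly factors and the supercomplex factor Cox7a2l. The mitochondrial members comprise 7 genes of complex I, 1 of complex III, 3 of complex IV and 2 of complex V.

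Some mitochondrial reading frames overlap, which bears on the values of mt-Atp8 and mt-Atp6, subunits of the proton channel of complex V. In the GENCODE M21 transcripts the last 43 of the 204 bases of mt-Atp8, or 21.1% of it, are also the first 43 of the 681 bases of mt-Atp6. Bases 115 to 204 of mt-Atp8 and bases 1 to 90 of mt-Atp6 are printed 5′ to 3′ on the coding strand. They show what the annotated genes share, with the shared bases in capitals.
mt-Atp8: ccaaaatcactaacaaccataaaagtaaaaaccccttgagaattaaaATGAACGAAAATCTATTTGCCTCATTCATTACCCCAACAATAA
mt-Atp6: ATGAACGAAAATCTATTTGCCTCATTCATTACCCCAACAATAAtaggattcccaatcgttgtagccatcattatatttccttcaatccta
A read inside the capitals fits both genes, so their values are partly shared out by estimation. The same holds for 7 bases common to mt-Nd4l and mt-Nd4. Use of strand in counting is not given in the sources used here, so mt-Nd6, which lies on the strand opposite to the other mitochondrial members, is uncertain as well.

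Promoters of nuclear members were read in RefSeq's table for build GRCm38.p6, which gives 250 bases before and 50 after the first listed start; 75 of the 90 nuclear members matched by symbol. Words of the factors known for binding many such promoters were searched on both strands, and no word contains another. The NRF1 word GCGCANGCG stood in 23 of the 75 promoters (30.7%), against 6.47% of all 27025 promoters. The GABPA word CCGGAAG stood in 20 (26.7%, against 9.12%), the YY1 word AAGATGGCG in 7 (9.33%, against 1.49%) and the ERRα word TCAAGGTCA in 2 (2.67%, against 0.407%). The set of all promoters was not matched to the members in expression or base content. Among nuclear members with an unadjusted p below 0.05 at 5% against 1% oil, those of complexes V and I with the smallest p and such a word in the 150 bases before the start are printed, so the choice fixes that a word is there. The GABPA word, on either strand, is in capitals. They are Atp5e (chr2:174464102-174464251, minus strand), the epsilon subunit of the ATP synthase, and Ndufs3 (chr2:90904722-90904871, minus strand), a core subunit of complex I.
Atp5e: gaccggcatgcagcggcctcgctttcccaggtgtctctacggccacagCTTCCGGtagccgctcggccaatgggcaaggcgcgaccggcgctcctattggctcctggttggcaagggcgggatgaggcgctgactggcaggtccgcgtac
Ndufs3: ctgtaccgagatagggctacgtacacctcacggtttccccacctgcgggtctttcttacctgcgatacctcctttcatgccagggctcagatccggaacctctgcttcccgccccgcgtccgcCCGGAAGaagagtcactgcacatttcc
The 41 members whose promoter held any of the words had a median log2 fold change of -0.28 at 5% against 1% oil, and the other members with a promoter had -0.29. A word is a match of letters and not a measured binding site.

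Library depth ran from 5291385 to 15674130 estimated reads, and the libraries were scaled by TMM factors. Long noncoding genes took 0.646% to 1.91% of reads, with the highest shares in the females N984 (1.91%), N979 (1.64%), N983 (1.55%) and N988 (1.24%); the other 8 libraries had at most 1.06%. Muscle markers (7 genes) summed to at most 2.26 CPM, and 4 of them (Acta1, Myh4, Myh6 and Mb) had no read. Hepatocyte markers summed to between 90501.5 and 176206 CPM over the 12 libraries. These are whole livers, in which fewer cells of a type and less RNA per cell cannot be told apart.

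Per length, the mitochondrial members other than mt-Nd3 and mt-Nd6 stood above every nuclear member on average. Per length (reads divided by transcript length and scaled to the same library total as CPM, mean ± SD over 12 libraries), the complex IV core subunits mt-Co2, mt-Co1 and mt-Co3 stood at 21144 ± 4276, 19526 ± 7871 and 19376 ± 5582. mt-Atp6 stood at 16821 ± 4979 and mt-Cytb, the cytochrome b of complex III, at 16735 ± 3114 per length. Neighbours in that order differed by less than their SD. The complex I messages were lower per length, from 8977 ± 1899 for mt-Nd4 through 7299.7 ± 1656 for mt-Nd1, 6987 ± 1837 for mt-Nd2, 3789 ± 1575 for mt-Nd4l, 2107 ± 758 for mt-Nd5 and 1341.5 ± 604 for mt-Nd3 to 73.7 ± 40.5 for mt-Nd6. mt-Atp8 stood at 4824 ± 2049 per length. Levels of overlapping genes are given by annotated gene and need not be levels of separate messages. Among nuclear members the highest level per length was 1382 ± 119.8 for Atp5b, the catalytic beta subunit of the ATP synthase, and the lowest was 1.95 ± 0.382 for Sdhaf3, an assembly factor of complex II.

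Within complexes the nuclear levels per length spread widely. In complex I they ran from 61.9 ± 17.2 for Ndufb4 to 515 ± 121 for Ndufa6, both accessory subunits. In complex II they ran from 152 ± 45.8 for Sdhc, a membrane anchor, to 237 ± 28.3 for Sdhb, the iron-sulfur subunit. In complex III Uqcrc1, a core protein, had 80.2 ± 10.2 and Uqcrb, a small subunit, had 634 ± 102.5. In complex IV Ndufa4 had 995 ± 98.7 per length and Cox7a1, the heart and skeletal muscle form of subunit VIIa, had 8.94 ± 2.82. In complex V Atp5g2, which encodes the same c-ring peptide as Atp5g1 and Atp5g3, had 29.4 ± 9.82. Other tissue forms were at the edge of detection and no members: over the 12 libraries the gene table held 19 reads of Cox4i2, 10 of Cox8b, 7 of Cox6a2, 65 of Cox6b2 and 84 of Ndufa4l2, and 0 of Cox8c and of Cox7b2.

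The mitochondrial mRNAs together took 4.98% and 8.32% of reads in the control females and 9.95% and 11.8% in the control males. At 1% oil they took 10.01% and 7.74% in females and 10.5% and 9.72% in males. At 5% oil they took 7.12% and 5.78% in females and 9.73% and 9.26% in males. The diets overlapped, with means of 8.76 ± 2.89% in controls, 9.49 ± 1.21% at 1% oil and 7.97 ± 1.85% at 5% oil (SD, n = 4 each). The 90 nuclear members together took 1.24 ± 0.0976% in controls, 1.38 ± 0.0685% at 1% oil and 1.29 ± 0.156% at 5% oil (SD, n = 4 each). The plot of shares by library shows both sums.

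**Figure D1:**
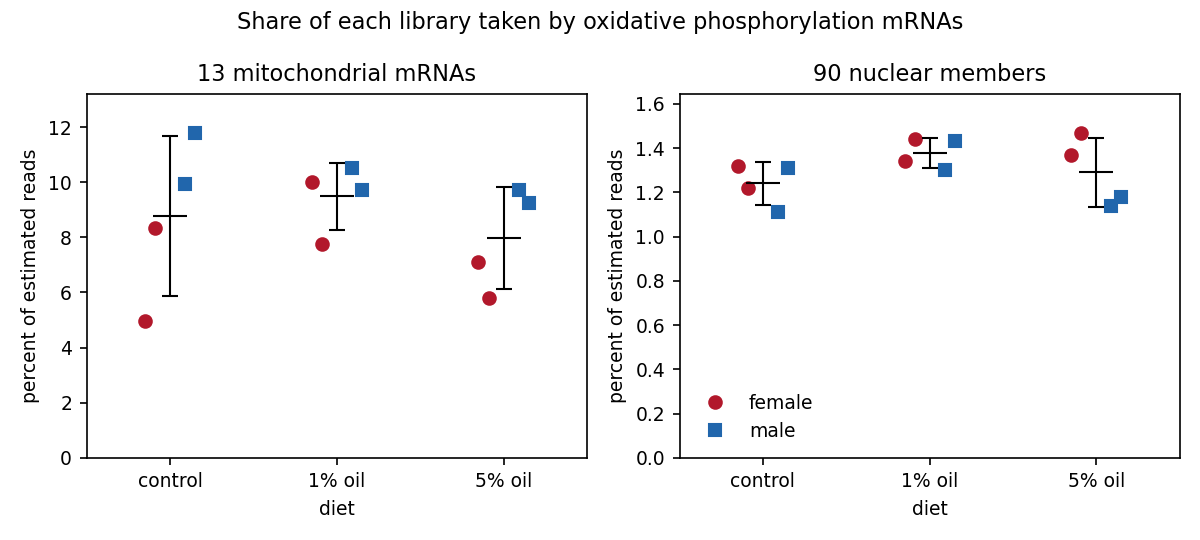
Percent of estimated reads (y axis) taken by the 13 mitochondrial mRNAs (left) and the 90 nuclear members (right) in each library, by diet (x axis); circles are females, squares are males, and bars give the mean and SD of 4 libraries. The mitochondrial share spans 4.98% to 11.8%, with the lowest value in a control female, while the nuclear share stays between 1.11% and 1.47%.

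The nuclear members had a smaller median spread between libraries than the genes tested as a whole. Their coefficient of variation over the 12 libraries had a median of 18.8%, against 29.9% over all 13814 genes tested and 25.6% over the 10772 genes at least as abundant as the lowest nuclear member. That member, Cox7a1, averaged 2.52 CPM, so neither set of genes is matched to the abundance of the nuclear members. The mitochondrial members had a median of 32.0% and ran from 23.1% for mt-Cytb to 57.7% for mt-Nd6. The map of members by library shows that most nuclear rows shift together within a library: their median log2 deviation from the mean of 12 libraries was 0.27 in N972, 0.23 in N984 and 0.22 in N968, and it was -0.34 in N967, -0.29 in N976 and -0.25 in N975. The mitochondrial members followed another order, with -0.87 in N979, -0.79 in N988 and 0.62 in N968.

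**Figure D2:**
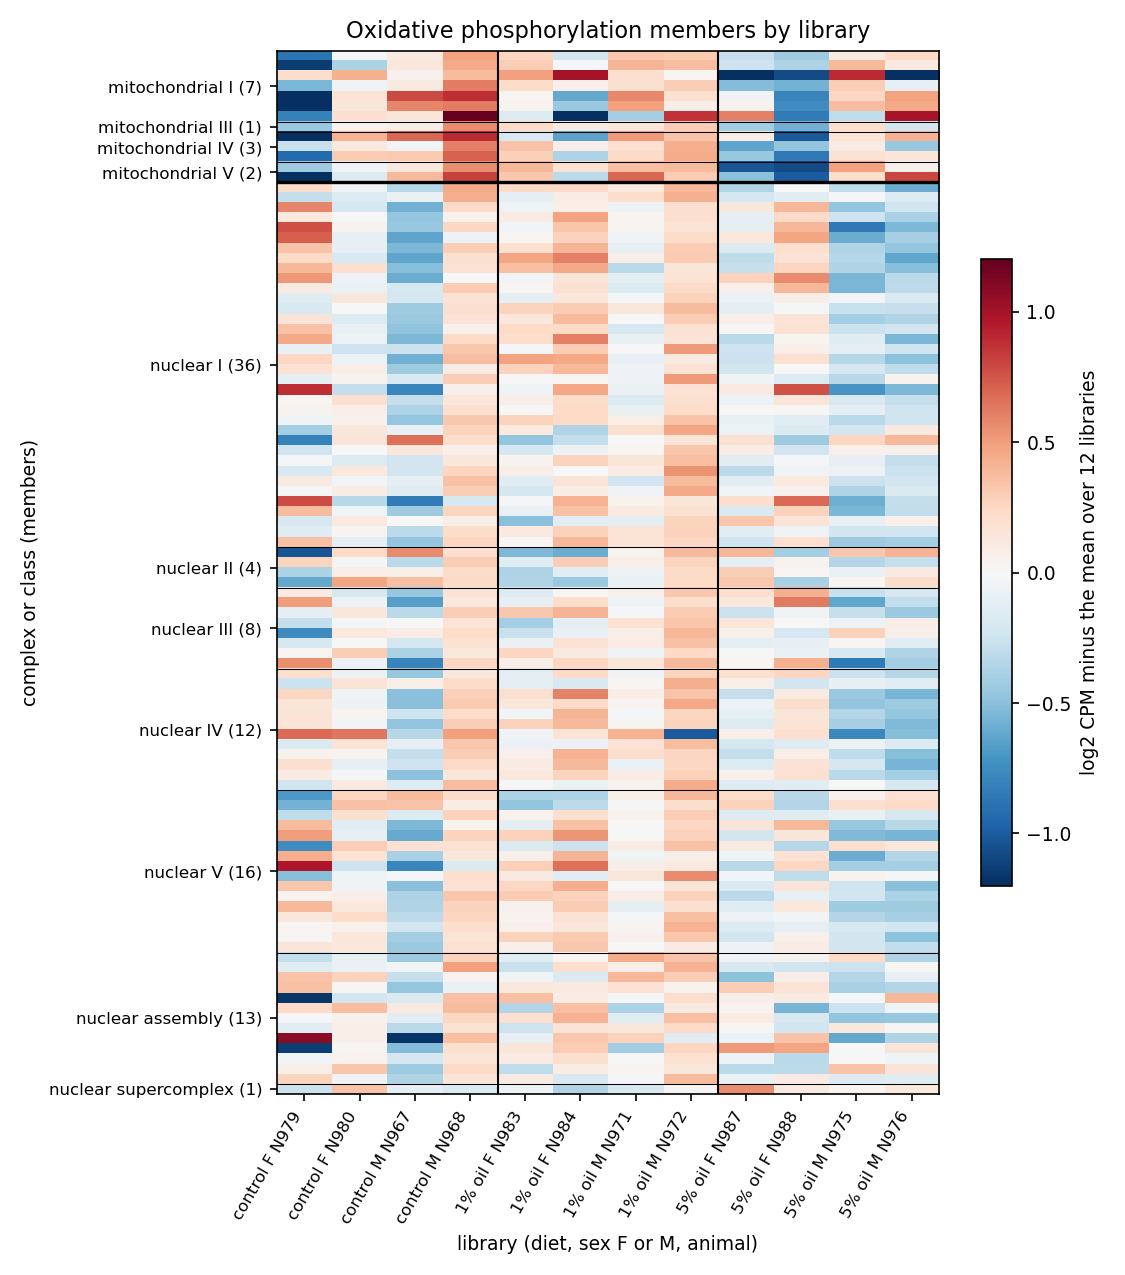
Each row is a member, grouped by genome and complex (members per group in brackets), and each column a library ordered by diet; color gives log2 CPM minus the mean over 12 libraries, limited to 1.2 in each direction. Nuclear rows are mostly blue in N967, N975 and N976, and mitochondrial rows are mostly blue in N979 and N988.

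The first comparison asks whether 5% oil changed these genes against the control diet. No mitochondrial and no nuclear member passed the threshold (edgeR quasi-likelihood test, Benjamini-Hochberg adjusted p below 0.05), where 2.46% of all genes tested did. At an unadjusted p below 0.05 there were 2 of 103 members, mt-Co2 and Ndufa1, against 14.6% of all genes. DESeq2 called 0 members against 5.42% of all genes, and limma on the deposited CPM called 0 against 4.04%. The median log2 fold change was -0.13 over the nuclear members (18 higher, 72 lower) and -0.27 over the mitochondrial ones (1 higher, 12 lower), while over all genes tested it was 0.01. The mitochondrial median was 0.08 without control N980 and -0.44 without control N979. The nuclear median was -0.03 without control N968, -0.23 without control N967 and 0.03 by limma on the deposited CPM. Those CPM carry no TMM factors. As an unscaled share of reads the nuclear members took 1.29 ± 0.156% at 5% oil and 1.24 ± 0.0976% in controls (SD, n = 4 each). The sign of this small nuclear difference thus differed with the scaling.

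By role, the medians at 5% oil against control were -0.12 for the nuclear genes of complex I, 0.00 for complex II, -0.03 for III, -0.21 for IV, -0.20 for V and -0.10 for the assembly factors. mt-Co2, a copper-binding core subunit of complex IV, had 6542, 7286, 10815 and 7369 CPM at 5% oil and 8407, 10991, 9903 and 15418.5 CPM in controls. The ranges overlapped, and its log2 fold change was -0.48 ± 0.19 (standard error; edgeR adjusted p = 0.250). Ndufa1, an accessory subunit of complex I, had 55.3, 70.7, 57.3 and 46.9 CPM at 5% oil and 82.3, 68.8, 55.8 and 96.9 CPM in controls, which is -0.40 ± 0.18 on the log2 scale at an edgeR adjusted p of 0.330, and its ranges overlapped too. The other nuclear members of smallest p were Atp5j2, an ATP synthase subunit (-0.34 ± 0.17), Cox7a1 (-0.63 ± 0.32), the complex II assembly factor Sdhaf1 (0.54 ± 0.26) and the complex I assembly factor Ndufaf5 (-0.46 ± 0.23), each with an edgeR adjusted p of at least 0.366. Ndufaf5 was the single nuclear member of 90 whose diets did not overlap, at 3.46 to 5.25 CPM at 5% oil against 5.49 to 6.66 CPM in controls; groups did not overlap for 6.08% of all genes.

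A fixed set of subunits lay between -0.25 and 0.15 at 5% oil against control. The log2 fold changes were 0.01 ± 0.21 for Ndufs1 and 0.12 ± 0.17 for Ndufv1, which carry electrons in complex I, and 0.15 ± 0.25 for Sdha, the flavoprotein of complex II. They were -0.25 ± 0.17 for Sdhb, 0.08 ± 0.15 for Uqcrc1 and -0.04 ± 0.14 for Uqcrfs1, the Rieske protein of complex III. In complex IV Cox5a had -0.15 ± 0.16, and in complex V Atp5a1, the alpha subunit, had -0.04 ± 0.21 and Atp5b 0.01 ± 0.20. The edgeR adjusted p values of these 9 genes were at least 0.576. Cox4i1 averaged 387 ± 81.0 CPM at 5% oil and 384 ± 72.6 CPM in controls (SD, n = 4 each).

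The second comparison sets 1% oil against the same control livers. Again 0 of 103 members passed the edgeR threshold, against 0.224% of all genes, and DESeq2 (2.17% of all genes) and limma (0.476%) also called 0 members. At an unadjusted p below 0.05 there were 3 of 103 members, all higher, against 11.1% of all genes. These were Ndufab1, the acyl carrier protein bound to complex I (log2 fold change 0.36 ± 0.15), Ndufa5, an accessory subunit of complex I (0.43 ± 0.19), and mt-Nd2, a membrane subunit of complex I (0.47 ± 0.21), with edgeR adjusted p values of 0.413, 0.440 and 0.432. The median log2 fold change was 0.12 over the nuclear members (72 higher, 18 lower) and 0.14 over the mitochondrial ones (9 higher, 4 lower), while over all genes tested it was 0.0. Over single libraries left out the nuclear median ran from 0.01 to 0.24, the highest without control N968. The mitochondrial median was -0.16 in 8 libraries, without the 4 highest in noncoding share. No member of either genome had diets that did not overlap, against 3.87% of all genes.

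At 1% oil against control the nuclear medians were 0.13 for complex I, -0.16 for II, 0.13 for III, 0.14 for IV, 0.14 for V and 0.11 for the assembly factors. Ndufs3 (0.27 ± 0.14), Ndufa12 (0.27 ± 0.16), an accessory subunit, and Ndufv2 (0.25 ± 0.15), an iron-sulfur subunit of complex I, were next by p, with edgeR adjusted p of at least 0.495. All 8 nuclear genes of complex III had positive values, from 0.04 to 0.24. Of the 4 genes of complex II 3 had negative values, the lowest -0.32 for the membrane anchor Sdhd.

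The third comparison sets the doses against each other. At 5% against 1% oil 78 of 90 nuclear and 12 of 13 mitochondrial members were lower, with medians of -0.26 and -0.39, while the median over all genes tested was 0.00. No member passed the edgeR threshold, against 1.33% of all genes. At an unadjusted p below 0.05 there were 26 of 103 members (22 nuclear, 4 mitochondrial), all lower, against 17.8% of all genes in either direction and 7.77% in the lower direction. DESeq2 called 5 members, 4 nuclear and mt-Co2, against 5.32% of all genes, and limma called 0 against 2.48%. The comparison shares its 1% livers and its 5% livers with the ones above.

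Among the nuclear members the smallest p values belonged to small subunits of several complexes. Ndufa5 had 65.4, 90.9, 63.7 and 52.3 CPM at 5% oil and 112, 123, 85.3 and 100.5 CPM at 1% oil. Only the female N988 at 5% oil lay above the lowest animal at 1% oil. Its log2 fold change was -0.63 ± 0.19 (edgeR adjusted p = 0.117; DESeq2 adjusted p = 0.0369). Cox5b, a zinc-binding subunit of complex IV, had 158, 205, 141 and 130.4 CPM at 5% oil and 220.3, 291, 203 and 243.5 CPM at 1% oil. Here too N988 alone overlapped the 1% livers, and the log2 fold change was -0.60 ± 0.19 (edgeR adjusted p = 0.125; DESeq2 adjusted p = 0.0416). Uqcrb had 200.2, 233, 198 and 176 CPM at 5% oil and 299, 319, 238 and 295 CPM at 1% oil. The diets did not overlap (log2 fold change -0.51 ± 0.16, edgeR adjusted p = 0.134; DESeq2 adjusted p = 0.0415). Atp5j, coupling factor F6 of the ATP synthase stalk, had 195.5, 229.9, 211 and 189 CPM at 5% oil and 303, 297, 261 and 297 CPM at 1% oil. Its diets did not overlap either, and the log2 fold change was -0.49 ± 0.16 (edgeR adjusted p = 0.138; DESeq2 adjusted p = 0.0414). Ndufa1 averaged 57.5 ± 9.84 CPM at 5% oil and 84.0 ± 6.73 CPM at 1% oil (SD, n = 4 each), which is -0.55 ± 0.18 on the log2 scale (edgeR adjusted p = 0.147).

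**Figure D3:**
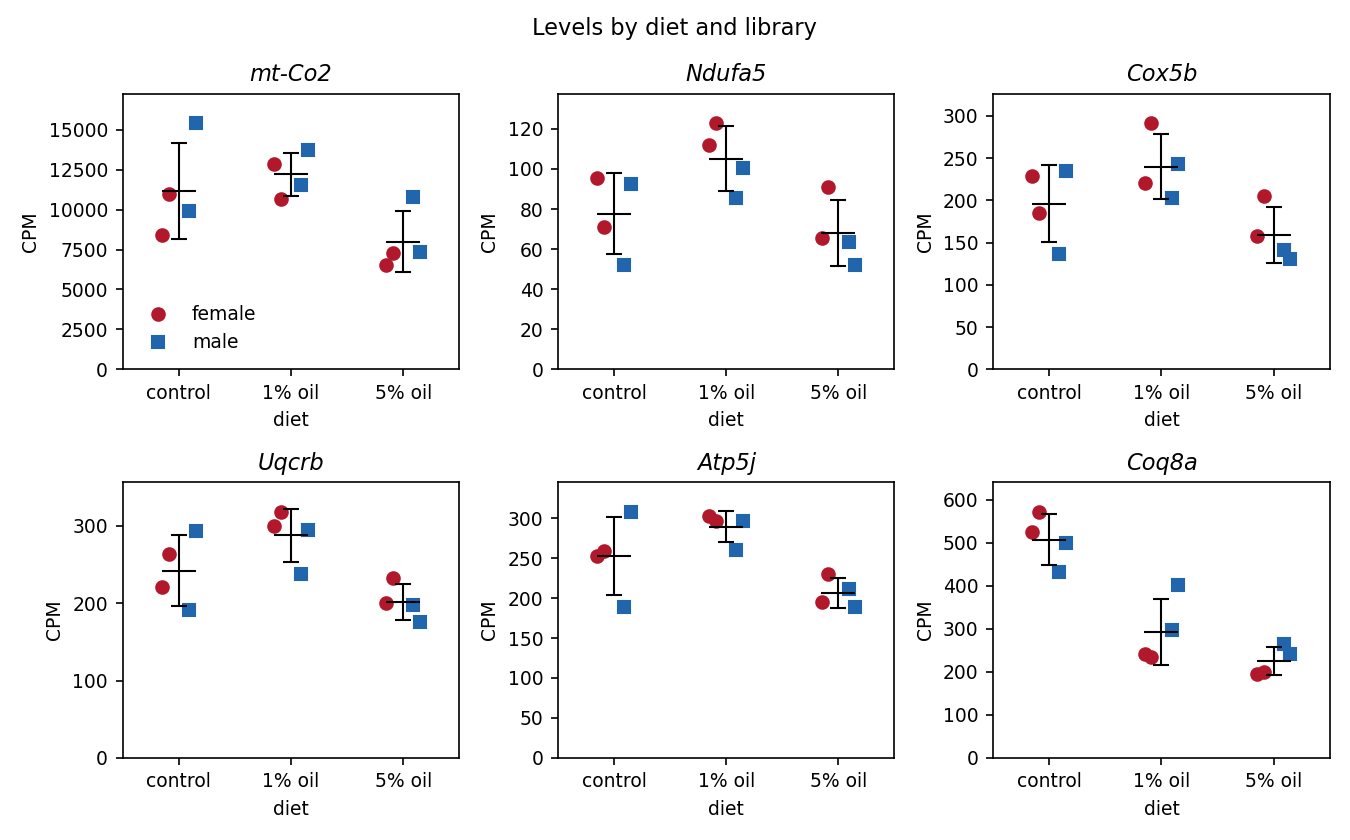
CPM scaled by TMM factors (y axis, from 0) of mt-Co2, Ndufa5, Cox5b, Uqcrb, Atp5j and the ubiquinone synthesis gene Coq8a by diet (x axis); circles are females, squares are males, and bars give the mean and SD of 4 libraries. The 5 members lie highest on average at 1% oil and lowest at 5% oil, whereas Coq8a averages 507 CPM in controls, 293 at 1% oil and 225 at 5% oil.

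By complex, the nuclear medians at 5% against 1% oil were -0.30 for I (34 of 36 lower), -0.16 for III (6 of 8 lower), -0.33 for IV (12 of 12 lower), -0.33 for V (13 of 16 lower) and -0.18 for the assembly factors (12 of 13 lower). Complex II had a median of 0.20, with Sdha at 0.38 ± 0.25 and Sdhb at -0.30 ± 0.17. The flavoprotein Sdha had 530.2, 304, 503.5 and 538 CPM at 5% oil and 277, 267, 414 and 526 CPM at 1% oil, with overlap. Groups did not overlap for 12 of 90 nuclear members (13.3%; 11 lower, and Cox7a2l higher) and for 0 of 13 mitochondrial ones, against 7.65% of all genes. Cox7a2l, classed here as a supercomplex factor, had 95.7 to 138.5 CPM at 5% oil and 73.6 to 95.4 CPM at 1% oil (log2 fold change 0.35 ± 0.17, edgeR adjusted p = 0.307). Supercomplexes were not measured. Of the fixed set of subunits, Ndufs1 (0.27 ± 0.21), Ndufv1 (0.23 ± 0.17), Uqcrc1 (0.04 ± 0.16), Atp5a1 (0.11 ± 0.21) and Atp5b (0.25 ± 0.20) had positive values. Uqcrfs1 (-0.22 ± 0.14), Cox4i1 (-0.14 ± 0.18) and Cox5a (-0.14 ± 0.16) had negative ones.

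**Figure D4:**
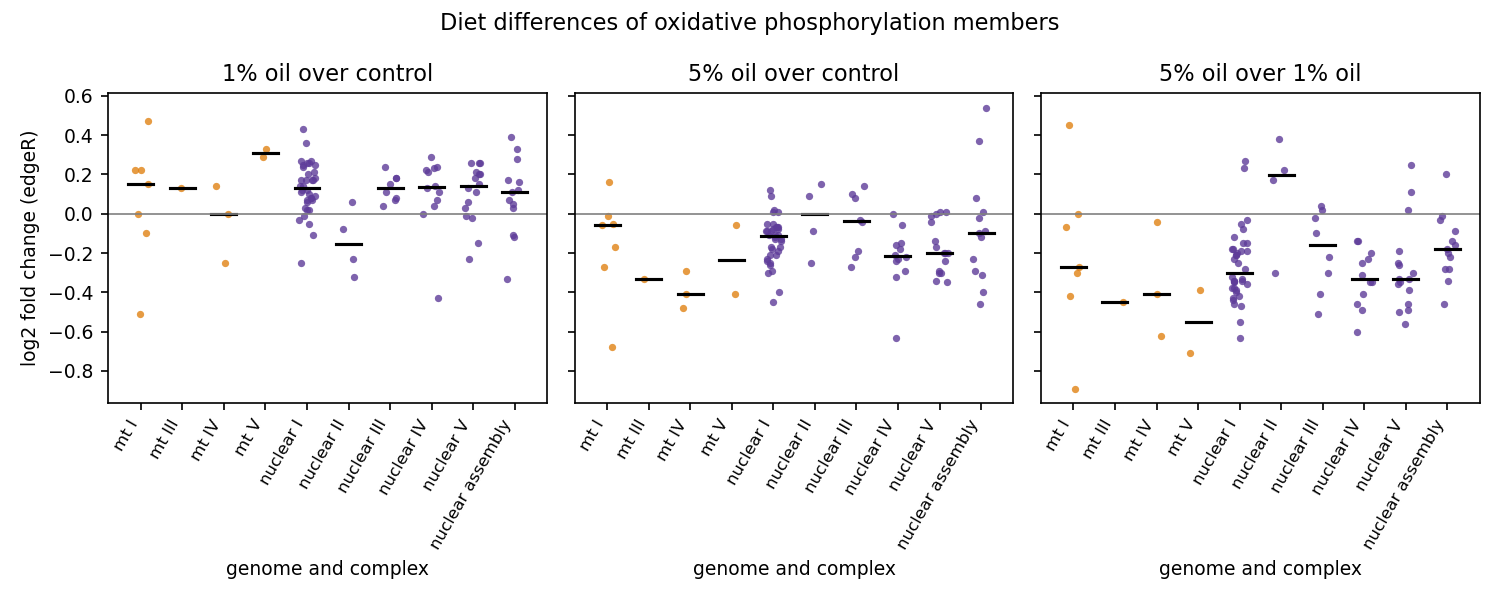
The log2 fold change (y axis) of each member by genome and complex (x axis) for 1% oil over control, 5% oil over control and 5% oil over 1% oil; each point is a gene, orange for mitochondrial and purple for nuclear, black bars are medians, and Cox7a2l is not drawn. The nuclear medians lie between -0.16 and 0.14 in the left panel, between -0.21 and 0.00 in the middle panel, and between -0.33 and 0.20 in the right panel, where complex II alone among the nuclear groups has a positive median.

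Mitochondrial members at 5% against 1% oil were led by mt-Co2, with 6542, 7286, 10815 and 7369 CPM at 5% oil and 12875.5, 10642, 11570.1 and 13704.5 CPM at 1% oil. Only the male N975 at 5% oil overlapped the 1% livers. The log2 fold change was -0.62 ± 0.19 (edgeR adjusted p = 0.121; DESeq2 adjusted p = 0.0268). mt-Atp6 had -0.71 ± 0.24, mt-Cytb -0.45 ± 0.19 and mt-Nd4 -0.42 ± 0.19, with edgeR adjusted p values of 0.153, 0.227 and 0.268. mt-Co3 (-0.41 ± 0.25), mt-Atp8 (-0.39 ± 0.31), mt-Nd2 (-0.30 ± 0.21), mt-Nd1 (-0.27 ± 0.20), mt-Nd4l (-0.07 ± 0.36) and mt-Co1 (-0.04 ± 0.36) had smaller values. mt-Nd6 had 0.45 ± 0.49, and mt-Nd5 averaged 2708 ± 884.5 CPM at 5% oil and 2661 ± 699.6 CPM at 1% oil (SD, n = 4 each).

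mt-Nd3, a small membrane subunit of complex I, rested on the male N975. It had 114, 142, 557 and 129.9 CPM at 5% oil, 420.2, 597, 345 and 304 CPM at 1% oil, and 348, 404, 310.0 and 391 CPM in controls. Its log2 fold change at 5% oil was -0.89 ± 0.49 against 1% oil and -0.68 ± 0.48 against control (edgeR adjusted p = 0.364 and 0.589). Without N975 it was -1.70 against 1% oil and -1.53 against control (edgeR adjusted p = 0.00226 and 0.0023). Dropping N975 removes the value that goes against the difference, so these p values are no support for it. Of 22 alternatives, mt-Nd3 passed under 2 against 1% oil and under 1 against control. N975 was also the animal at 5% oil whose mitochondrial members were highest, at a median log2 deviation of 0.21.

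Other measures moved beside the dose contrast. Long noncoding reads took 0.676% to 1.24% at 5% oil and 0.685% to 1.91% at 1% oil. Sinusoidal endothelial markers (8 of 8 genes tested, none called) summed to 131 to 211 CPM at 5% oil and 190.2 to 304 CPM at 1% oil, with a median log2 fold change of -0.56. Erythroid markers (5 of 5 tested, none called) summed to 104 to 221 CPM at 5% oil and 70.7 to 548 CPM at 1% oil, with a median of -0.93, and lymphocyte markers (6 of 6 tested, none called) to 2.78 to 9.44 CPM at 5% oil and 5.81 to 9.37 CPM at 1% oil, with a median of -0.40. Hepatocyte markers (7 of 8 tested, none called) summed to 90501.5 to 106227 CPM at 5% oil and 100266.5 to 115762 CPM at 1% oil, with a median of -0.17. Stellate cell and cholangiocyte markers had medians of -0.21 and -0.2. Kupffer cell markers (11 of 11 tested, none called) and neutrophil markers (2 of 4 tested, none called) went the other way, with medians of 0.3 and 0.4. Transcript length went with the values too: of the 45 nuclear members with a transcript length under the median of 734 bases, 0 were higher and 45 lower (median -0.34), while of the 45 longer ones 12 were higher and 33 lower (median -0.19). Spearman's rho between length and log2 fold change was 0.52 over the 90 nuclear members and 0.13 over 13795 genes with a length, all genes being read from the same libraries. The part of these measures in the dose contrast was not tested.

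Genes around the chain were given by lists chosen with earlier results of these data known. At 5% oil against control, 1 of 17 genes of electron carriers and ubiquinone synthesis fell, 1 of 14 regulators fell, and 0 passed of 40 further assembly factors (4 of them members), 36 factors of mitochondrial DNA, RNA and translation, 78 mitochondrial ribosomal proteins, 14 genes of the TCA cycle, and 18 of uncoupling, carriers and mitochondrial mass. That is 2 of 217 genes over these lists, against 2.46% of all genes. The medians of these lists lay between -0.02 and 0.23. At 1% oil against control and at 5% against 1% oil, 0 genes of any list passed edgeR's adjusted threshold; of the 217 genes in these lists, 15 and 31 had an unadjusted p below 0.05, against 11.1% and 17.8% of all genes.

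Coq8a, an atypical kinase-like protein needed for ubiquinone synthesis, fell at 5% oil. It had 195, 199, 264.5 and 241 CPM at 5% oil against 525, 572, 431.5 and 498 CPM in controls, so that the diets did not overlap. The log2 fold change was -1.19 ± 0.18 (edgeR adjusted p = 0.00446), and the 22 alternatives gave -1.32 to -1.02, all past the threshold. At 1% oil it had 241, 233.5, 296 and 401 CPM, which is -0.82 ± 0.18 on the log2 scale against control (edgeR adjusted p = 0.0774) with all 4 animals below the controls. The other 16 genes of that list did not pass at 5% oil.

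Ppargc1a, the coactivator PGC-1α that drives transcription of nuclear respiratory chain genes, fell at 5% oil as well. It had 3.69, 3.83, 6.71 and 2.09 CPM at 5% oil against 12.1, 15.1, 7.99 and 14.6 CPM in controls, with no overlap. Its log2 fold change was -1.64 ± 0.38 (edgeR adjusted p = 0.0425), and the edgeR adjusted p lay above the threshold without N987, N988, N976, N971, N972, N979, N980 or N968 (up to 0.143), without the sex term (0.0824) and without the 4 libraries highest in noncoding share (0.0936). At 1% oil it had 6.46, 16.1, 6.06 and 5.82 CPM, which is -0.60 ± 0.37 on the log2 scale against control (edgeR adjusted p = 0.573). In the same livers 0 of 90 nuclear members passed at 5% oil against control. Hepatocyte markers summed to 90501.5 to 106227 CPM at 5% oil and 103123 to 176206 CPM in controls, and Kupffer cell markers to 157 to 423 CPM at 5% oil and 324 to 661 CPM in controls. Stellate cell markers (8 tested, none called) did not overlap, at 301 to 349 CPM at 5% oil and 355 to 488 CPM in controls, with a median log2 fold change of -0.32. Erythroid markers (5 tested, 1 called) did not overlap either, at 104 to 221 CPM at 5% oil and 241 to 515 CPM in controls, with a median of -1.45. Endothelial markers (8 tested, none called) summed to 131 to 211 CPM at 5% oil and 175 to 293 CPM in controls, with a median of -0.47. Neutrophil markers (2 of 4 tested, none called) went the other way, with a median of 0.83. The part of these markers in the values of Coq8a and Ppargc1a was not tested.

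The fourth comparison sets females against males over all diets. All 13 mitochondrial members were lower in females, with a median log2 fold change of -0.62, and 3 fell past the threshold: mt-Atp8, mt-Nd2 and mt-Atp6. Because mt-Atp8 and mt-Atp6 share bases, their calls are not independent. None of the 90 nuclear members passed, with a median of 0.13 (57 higher, 33 lower), while the median over all genes tested was 0.03. Among all genes tested 8.94% passed and 5.34% were called lower in females. At an unadjusted p below 0.05 there were 10 of 13 mitochondrial and 20 of 90 nuclear members, against 28.7% of all genes. DESeq2 called 9 mitochondrial and 3 nuclear members against 15.0% of all genes, and limma called 2 and 2 against 11.5%.

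mt-Atp8 ran from 215 over a median of 478 to 792 CPM in females and from 733 over 923.5 to 1119 CPM in males, which is -1.02 ± 0.25 on the log2 scale (edgeR adjusted p = 0.0267). The ranges overlapped because the female N983 lay above the males N975 and N972. mt-Nd2 ran from 2246 over 4003 to 6068 CPM in females and from 5384 over 6448 to 6801 CPM in males, which is -0.61 ± 0.17 on the log2 scale (edgeR adjusted p = 0.0402). mt-Atp6 ran from 3708 over 6666 to 10274.5 CPM in females and from 8099 over 10053 to 11485 CPM in males, which is -0.66 ± 0.20 on the log2 scale (edgeR adjusted p = 0.0493). For all of these the lowest female library was N979 or N988. mt-Nd4l was the single mitochondrial member whose sexes did not overlap, at 188 to 805 CPM in females and 814 to 1327 CPM in males (-0.92 ± 0.30, edgeR adjusted p = 0.0740); groups did not overlap for 3.86% of all genes and for 0 of 90 nuclear members.

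The other mitochondrial members had log2 fold changes in females against males of -0.85 ± 0.30 for mt-Co1, -0.85 ± 0.40 for mt-Nd6, -0.76 ± 0.26 for mt-Nd5, -0.62 ± 0.20 for mt-Co3, -0.50 ± 0.16 for mt-Nd1, -0.47 ± 0.16 for mt-Nd4, -0.36 ± 0.15 for mt-Cytb, -0.29 ± 0.16 for mt-Co2 and -0.21 ± 0.39 for mt-Nd3. The summed mitochondrial share was 7.32 ± 1.80% in females and 10.2 ± 0.90% in males (SD, n = 6 each), and within each diet both females had a lower share than both males, except N983 at 1% oil. The calls depended on single libraries: 0 mitochondrial members passed without N988, N976, N984, N967 or N968, 1 passed without N975 or N972, and 8 passed without N980. Calls over all genes moved as well, from 1235 in the main fit. They numbered 594 to 775 without N988, N976, N984, N967 or N968, 641 without N972 and 2356 without N980. With the noncoding share as a covariate 0 passed and the median was -0.46, and without the 4 libraries highest in that share 0 passed and the median was -0.40. Calls over all genes fell too, to 394 with the covariate and to 156 without those 4 libraries. That share was 0.646% to 1.91% in females and 0.650% to 1.06% in males, so sex and noncoding share cannot be fully told apart.

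Nuclear members of smallest p in females against males went in both directions. Ndufs1 ran from 51.3 over a median of 70.4 to 102 CPM in females and from 89.8 over 106 to 142 CPM in males (log2 fold change -0.52 ± 0.17, edgeR adjusted p = 0.0700). Ndufa6 ran from 155 over 232.5 to 257 CPM in females and from 131 over 148 to 213.5 CPM in males (0.45 ± 0.15, edgeR adjusted p = 0.0704). Atp5g1 (0.39 ± 0.13), Ndufa2 (0.52 ± 0.18), an accessory subunit of complex I, and Ndufs7 (0.60 ± 0.21), an iron-sulfur subunit next to the ubiquinone site, were higher in females by value, with edgeR adjusted p of 0.0756, 0.0836 and 0.0864. Among long messages, Sdha (-0.59 ± 0.21), Atp5a1 (-0.40 ± 0.17) and Uqcrc2 (-0.35 ± 0.15) were lower by value, while Sdhaf1 (0.14) was not. Over the 21 alternatives Sdha ran from -0.78 to -0.04, Atp5a1 from -0.55 to 0.05 and Uqcrc2 from -0.49 to -0.05.

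Length went with these values. Of the 45 shorter nuclear members 36 were higher and 9 lower in females (median 0.20), and of the 45 longer ones 21 were higher and 24 lower (median -0.02). Spearman's rho with length was -0.52 over the 90 nuclear members and -0.09 over 13795 genes, described without a test. The plot of sex differences against length shows each member.

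The balance between mitochondrial messages also differed between libraries, a pattern noticed after the values were seen. The read ratio of mt-Co1 to mt-Co2 was 0.715 in N979, 1.16 in N984, 1.31 in N983 and 1.32 in N988, the 4 libraries highest in noncoding share, which are all from females. In the other 8 libraries it ran from 1.79 in N972 to 3.51 in N976, with the females N980 at 2.36 and N987 at 3.15. mt-Co1 itself had 6009.6 CPM in N979 and 36140.0 in N968, a span of 6.01 times, while mt-Co2 spanned 2.36 times. N979 was also the shallowest library. The part of depth and noncoding share in the ratio was not tested.

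**Figure D5:**
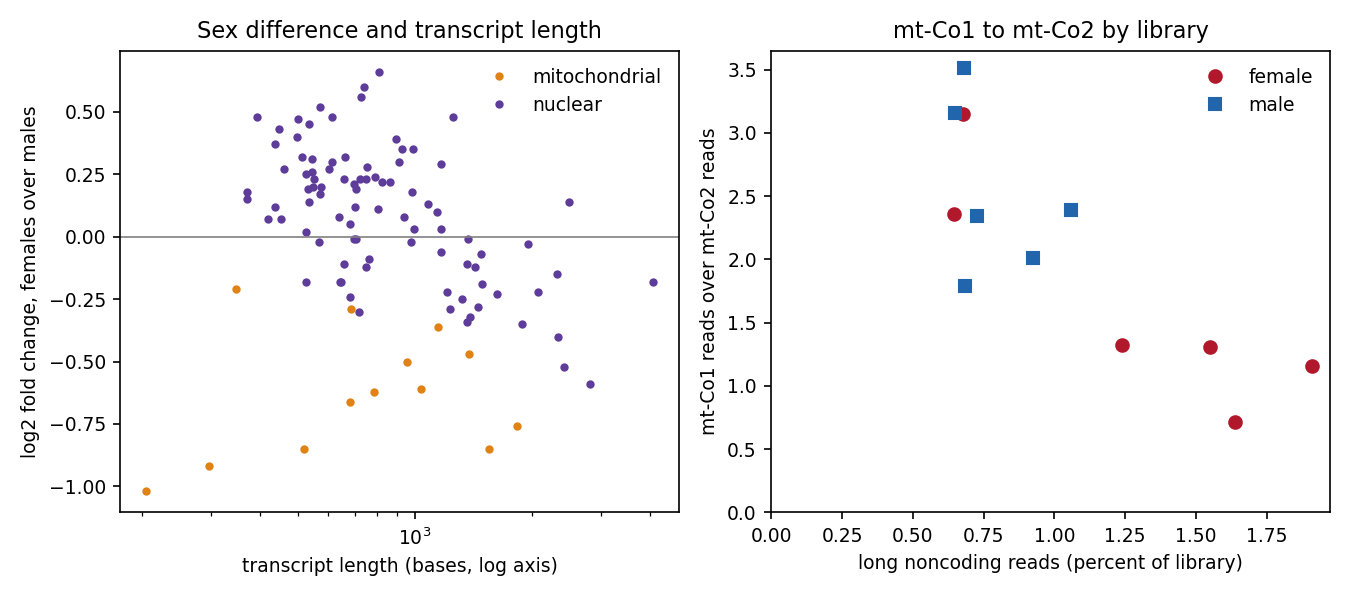
Left, log2 fold change of females over males (y axis) against transcript length in bases (x axis, log scale), with mitochondrial members in orange and nuclear members in purple. Right, reads of mt-Co1 over reads of mt-Co2 (y axis) against the percent of long noncoding reads (x axis) in the 12 libraries, with circles for females and squares for males; the 4 libraries with at least 1.24% noncoding reads have ratios of 0.715 to 1.32.

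The lists around the chain were also set between the sexes. Of their 217 genes 12 were called lower and 1 higher in females, where 5.34% of all genes were called lower and 8.94% in either direction. Of 17 genes of electron carriers and ubiquinone synthesis 4 fell in females: Cycs, cytochrome c itself (39.8 ± 12.8 CPM in females and 62.9 ± 8.45 in males; log2 fold change -0.71 ± 0.16, edgeR adjusted p = 0.0188), Etfdh, which feeds electrons from fatty acid oxidation to ubiquinone (-0.66 ± 0.18), and the ubiquinone synthesis genes Coq7 (-0.58 ± 0.13) and Pdss2 (-0.67 ± 0.13). Of 40 further assembly factors 1 fell, the complex IV factor Cox19 (-0.62 ± 0.16). Of 36 factors of mitochondrial DNA, RNA and translation 3 fell (Mtif2, Hsd17b10 and Gfm1), and of 78 mitochondrial ribosomal proteins 3 fell (Mrpl16, Mrpl1 and Mrps22). Of 18 genes of uncoupling, carriers and mass Immt, a cristae organiser, fell by 0.50 ± 0.14 and Ucp2, an inner membrane carrier, rose by 0.71 ± 0.17. None of 14 regulators and 14 TCA cycle genes passed edgeR's adjusted threshold, with 3 and 5 at an unadjusted p below 0.05, and the difference between lists was not tested. Over the 21 alternatives the call was lost in 1 for Pdss2, 2 for Ucp2, 3 for Cycs, 5 for Coq7 and Hsd17b10, 9 for Cox19, 12 for Etfdh, Mtif2 and Mrpl16, 13 for Mrps22 and Immt, 15 for Gfm1 and 17 for Mrpl1.

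Markers of other cells differed between the sexes too. Of the 4 adipose markers only 1 passed the filter on low counts, and it was called lower in females (log2 fold change -9.83). Their summed levels did not overlap, at 0 to 0.368 CPM in females and 11.6 to 138 CPM in males. With the other adipose markers below the filter, the list as a set is not shown to differ. Kupffer cell and macrophage markers (11 of 11 tested, 1 called) summed to 281 to 661 CPM in females and 157 to 341 CPM in males. Hepatocyte markers (7 tested, 1 called) summed to 103420.3 to 176206 CPM in females and 90501.5 to 123154 CPM in males, stellate cell markers (8 tested, 1 called) to 301 to 488 CPM in females and 289 to 388 CPM in males, and erythroid markers (5 tested, 1 called) to 70.7 to 508 CPM in females and 104 to 548 CPM in males. Lymphocyte markers (6 tested, none called) summed to 6.10 to 13.4 CPM in females and 2.78 to 9.37 CPM in males, and the nuclear RNAs Malat1 and Neat1 to 273 to 1225 CPM in females and 252 to 709 CPM in males. No endothelial, cholangiocyte or neutrophil marker was called between the sexes. Their part in the sex difference was not tested.

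Whether the oil acted unlike in females and males was tested by interactions with 2 libraries per sex and diet. At 5% oil 0 of 103 members passed edgeR's adjusted threshold, as did 0.0% of all genes, and 0 had an unadjusted p below 0.05 against 4.67% of all genes. At 1% oil 0 passed, as did 0.0% of all genes, and 1 of 103, the complex I assembly factor Ndufaf2, had an unadjusted p below 0.05 against 3.74% of all genes. By value, 79 of 90 nuclear (median 0.18) and 9 of 13 mitochondrial members (median 0.06) had positive interactions at 5% oil. At 1% oil 26 of 90 nuclear (median -0.12) and all 13 mitochondrial members (median 0.52) were positive. Members share their libraries, so these counts are not independent. The median standard error was 0.36 over nuclear and 0.52 over mitochondrial members in each interaction. Differences of that size, and clearly larger ones, could have been missed. The deposited table of the authors' own comparison, whose contrast is not named, lists 261 genes, and 0 of the 103 members are among them. Beside the 11339 genes of the CPM table, a list of that length would hold few members in any case. The 0 is therefore no result about the members.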

How the data were processed

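Liver mRNA of 12 mice was measured in libraries made, per the labels' protocols, with a stranded poly(A) kit from RNA of integrity number above 7. The deposited gene and transcript tables hold estimated counts; the submitters' processing notes list kallisto, edgeR and limma (no version, no role) and build GRCm39. The deposited CPM of 11339 genes are, by their values, counts over the sum of those genes. The authors also deposited a table of log2 fold changes, p-values and CPM-like scores for 261 genes, used only to look up members. Symbols, lengths and gene classes came from tables of build GRCm38, and 48845 of 49398 IDs had a symbol.

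Estimated counts were rounded and tested with edgeR 4.0.16 under R 4.3.3 (genes kept by filterByExpr over 6 diet-by-sex groups, 13814 of them; TMM; robust quasi-likelihood fit of diet and sex over all 12 libraries; 2-sided; Benjamini-Hochberg threshold 0.05). The standard error of a fold change is its log2 size divided by the root of its F statistic. CPM in the text are scaled by TMM factors. DESeq2 1.42.0 and limma 3.58.1 (trend, log2 of the deposited CPM plus 0.5) were alternatives, with RLE scaling, scaling without mitochondrial genes, other filters, no sex term, the noncoding share as covariate, transcript sums and leaving out each library. The edgeR fit was tested on simulated counts, with planted changes larger than any diet difference of a member. That run therefore does not bear on detecting differences as small as those of the members. Levels per length divide transcript counts by GENCODE M21 lengths. Animals are separate mice by their numbers, and no animal is shared between groups. Depth was 5291385 to 15674130 reads, and standard errors cover variation between animals as well as counting. Named were all mitochondrial members and, per comparison, the nuclear members past the threshold or else the 5 of smallest p. Also named were a fixed set of subunits and tissue forms, and the highest and lowest member per complex. A few others are named for a stated value. The members and lists were chosen with earlier results of these data known.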

Additional observations from a re-analysis of the deposited data

Results flagged for a closer look

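Of 153 sets of 4 libraries examined (47 named members and the summed measures in each diet), 8 held a library far from the other 3 by Dixon's ratio; chance alone flags about 1 in 20 such sets. In the mitochondrial genome, mt-Nd1 had 4163.7 CPM in the 1% female N984 against 5778 to 6059 CPM in the other 1% livers. mt-Nd3 had 557.2 CPM in the 5% male N975 against 114 to 142 CPM in the other 5% livers. The 5% female N988 stood apart for 3 nuclear members: Sdha at 304 CPM against 503.5 to 538, Atp5b at 695.9 CPM against 1018 to 1081, and Atp5g2 at 17.3 CPM against 11.0 to 11.6. Atp5j had 260.7 CPM in the 1% male N971 against 297 to 303 CPM in the other 1% livers. Ndufaf1, an assembly factor of complex I, had 37.0 CPM in the control male N968 against 23.8 to 25.7 CPM in the other controls. Long noncoding reads took 1.64% in the control female N979 against 0.646% to 0.726% in the other controls.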

How the results depend on the processing

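No paired analysis was possible because no animal number is shared between diets or sexes. For 5% oil against control, 0 nuclear members passed under all 22 alternatives, and the mitochondrial count was 0 to 1 without single libraries. For 1% oil against control both counts were 0 under all 22 alternatives. For 5% against 1% oil, DESeq2 called 4 nuclear and 1 mitochondrial member, no filter called 2 mitochondrial members, and leaving out single libraries gave 0 to 2 mitochondrial members. For females against males, the nuclear count of 0 became 6 with no filter, 3 with DESeq2, 2 with limma and 0 to 8 without single libraries. The mitochondrial count of 3 became 9 with no filter, 9 with DESeq2, 0 with the noncoding share in the design, 0 without the 4 libraries highest in noncoding share (chosen after seeing the data; 8 libraries, 2 of them female, remain), and 0 to 8 without single libraries. The causes were not tested. The nuclear medians stayed within -0.43 to -0.17 for 5% against 1% oil and 0.06 to 0.22 for females against males. Counts over all genes ran from 107 to 1011 for 5% oil against control (340 as reported), 10 to 649 for 1% oil against control (31), 8 to 1276 for 5% against 1% oil (184) and 156 to 2375 for females against males (1235). RLE factors moved no library by more than 0.028 on the log2 scale. With 4 livers per diet the standard errors of nuclear members, 0.14 to 0.33 in the diet comparisons, limit what could be detected.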

Other observations

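The mitochondrial ribosomal RNAs, which lack long poly(A) tails, took 0.118% and 0.148% of reads in the 5% females and 0.143% and 0.105% in the 5% males, 0.201% and 0.182% in the 1% females and 0.148% and 0.169% in the 1% males, and 0.520% and 0.106% in the control females and 0.0928% and 0.137% in the control males. The control female N979 held the highest ribosomal and the lowest messenger share of the mitochondrial genome.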
